A study of Sus scrofa with 6 samples.

Results

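Transcripts of 6 genes of the transforming growth factor beta (TGF-beta) family were followed in pig embryos made by nuclear transfer and in the cells that donated the nuclei. The genes were GDF9 and BMP15, which encode ligands secreted by the oocyte, INHA and INHBA, which encode inhibin and activin subunits, FST, which encodes follistatin, and ACVR1, which encodes a type I receptor. Every probe set that the array's annotation gave to these symbols was taken, which was 8 of the 23999 probe sets on the Affymetrix Porcine Genome Array, 2 each for FST and ACVR1 and 1 for each of the others. The annotation named 6765 genes in all. The gene identifiers of all 8 probe sets carry the same symbols in RefSeq. The accessions of 5 are among the RefSeq transcripts there, and those of the second FST probe set and of both ACVR1 probe sets are not.

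In nuclear transfer the nucleus of a cultured cell is placed in an oocyte, so the cytoplasm and its stored transcripts come from the oocyte. Embryos were injected with an antibody against DJ-1, a redox-sensitive protein (anti-DJ1 embryos, 2 arrays), injected with IgG (IgG embryos, 2 arrays) or left without injection (1 array). Each array held a pool of 23 to 26 embryos collected 28 h after transfer, near the 2-cell stage, from slaughterhouse oocytes cultured in PZM-3 medium. The donor cells (1 array) were cultured fibroblasts from an adult Meishan pig, by their label, and supplied the nuclei of the embryos. The trial of each array was taken from the replicate number in its label. By this reading trial 1 held 1 array of each group, and trial 2 held a further anti-DJ1 and a further IgG array.

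As background, GDF9 and BMP15 are made by the growing oocyte and act on the surrounding granulosa and cumulus cells. Inhibin joins an alpha subunit (INHA) to a beta subunit such as INHBA, while activin is a dimer of beta subunits, and the hormones act against each other. Follistatin binds activin outside the cell and blocks it, and in cattle its oocyte transcript has been linked to the quality of the egg. Type I receptors such as ACVR1 pass the signal to SMAD proteins, which enter the nucleus.

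Values are MAS5 signals on a linear scale. The trimmed mean was nearly equal on all arrays (494 to 497), so signals are levels relative to the other transcripts of a sample. As a measure of background, the highest of each array's 17 Tag controls, probe sets for sequences that are not in the sample, ranged from 21.4 to 47.0. Between 55.8% and 71.0% of probe sets lay above it. The ratio of 3′ to 5′ signal of EF1A, which is higher where labelled RNA is shorter, was 24.2 and 8.20 in anti-DJ1 embryos (trials 1 and 2), 23.9 and 9.34 in IgG embryos and 30.0 in non-injected embryos, against 4.23 in donor cells. The 6 oocyte markers on the array (ZP2, ZP3, ZP4, KPNA7, WEE2 and H1FOO) summed to between 65036 and 129008 on the embryo arrays, against 149 in donor cells. Of 18 fibroblast markers, 15 lay above the Tag controls in donor cells, with FN1 at 24455 and VIM at 31965, but LUM at 1.71, POSTN at 22.7 and DCN at 5.58 did not. On the embryo arrays 11 to 15 of the 18 lay above, with sums of 3846 to 4537, against 101208 in donor cells. In the fit below, 13 of 15 tested markers were lower in embryos than in donor cells, and DCN and PDGFRB were higher. The keratin genes KRT8 and KRT18 had signals of 9907 and 2103 in the donor cells.

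**Figure D1:**
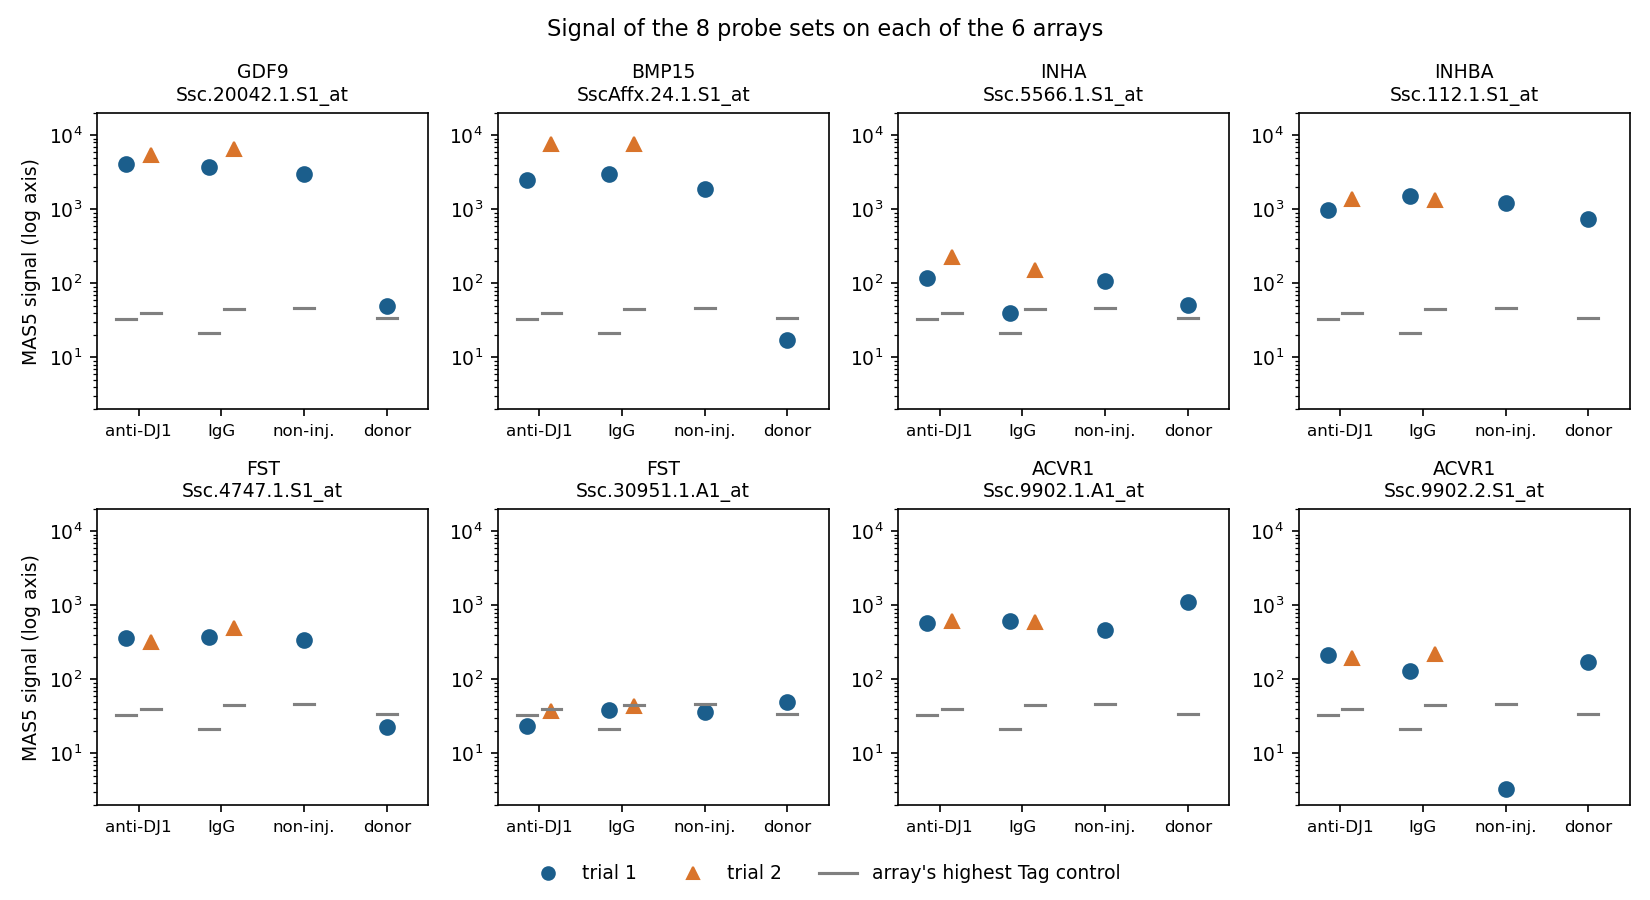
MAS5 signal (log axis) of the 8 probe sets in anti-DJ1, IgG and non-injected embryos and in donor cells, 1 point per array, with circles for trial 1, triangles for trial 2 and a grey line at each array's highest Tag control. GDF9, BMP15 and the first FST probe set stood far above the donor cell array on all 5 embryo arrays, and the second ACVR1 probe set was at 3.26 in non-injected embryos.

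GDF9 and BMP15 were abundant in all embryos and low in the donor cells, and both stood higher in trial 2 than in trial 1. GDF9 had a signal of 4098 and 5422 in anti-DJ1 embryos (trials 1 and 2), 3760.3 and 6509.9 in IgG embryos and 2983 in non-injected embryos, against 50.1 in donor cells. The lowest embryo array was the non-injected one, the anti-DJ1 range lay inside the IgG range, and no embryo array came near the donor cell value. BMP15 had a signal of 2475 and 7586 in anti-DJ1 embryos, 3007 and 7712 in IgG embryos and 1880.3 in non-injected embryos, against 17.4 in donor cells. Again the non-injected array was the lowest of the 5, and the arrays of trial 2 were the 2 highest. Across the 5 embryo arrays the highest GDF9 signal was 2.18 times the lowest, and the highest BMP15 signal 4.10 times the lowest.

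The inhibin alpha transcript was dim and variable, while the beta A transcript held a nearly even level. INHA had a signal of 118 and 226 in anti-DJ1 embryos, 40.3 and 153 in IgG embryos and 109 in non-injected embryos, against 51.2 in donor cells. It was above the Tag controls on all 6 arrays, the anti-DJ1 and IgG ranges overlapped, and IgG embryos of trial 1 lay below the donor cells. INHBA had a signal of 975 and 1371 in anti-DJ1 embryos, 1495 and 1347 in IgG embryos and 1209 in non-injected embryos, against 739 in donor cells. Its embryo arrays spanned 1.53-fold, and all 5 were above the donor cells.

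Of the regulators outside and at the surface of the cell, follistatin was an embryo transcript by 1 probe set, and the receptor ACVR1 was present in both embryos and donor cells. The first FST probe set, which matched a RefSeq transcript, had a signal of 358 and 323 in anti-DJ1 embryos, 368 and 499.7 in IgG embryos and 337 in non-injected embryos, against 22.8 in donor cells, which is under the Tag controls there. Both anti-DJ1 arrays lay below both IgG arrays, for both FST probe sets and for none of the other 6; this held for 8.76% of all tested probe sets, and the opposite for 8.70%. The second FST probe set read 23.3 and 37.3 in anti-DJ1, 38.5 and 43.2 in IgG and 36.6 in non-injected embryos, against 50.2 in donor cells, which is above the Tag controls there. Only 1 of the 5 embryo arrays, IgG of trial 1, was above its Tag controls, so this probe set was at background in the others, and its mean of 38.2 lay under the minimum of 54.4 for testing.

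ACVR1 was read by 2 probe sets that differed most in non-injected embryos and also in how injected embryos stood against donor cells. The first, the brighter one, had a signal of 579.7 and 622 in anti-DJ1 embryos, 614 and 603 in IgG embryos and 463 in non-injected embryos, against 1095 in donor cells. The embryo arrays spanned 1.34-fold, and all 5 were below the donor cells. The second had a signal of 212 and 194 in anti-DJ1 embryos, 132 and 223 in IgG embryos and 3.26 in non-injected embryos, against 173 in donor cells. Without the non-injected array its embryo values lay on both sides of the donor cell value, 3 above and 1 below.

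Anti-DJ1 embryos were set against IgG embryos to ask what the antibody does to these transcripts, and 0 of the 7 tested probe sets passed. Tests used limma on log2(signal + 4.57) with group and trial as terms over all 6 arrays, and p-values were adjusted over 14399 probe sets. In this fit 0 of 14399 passed an adjusted p of 0.05 (0%), 812 had an unadjusted p under 0.05, and of the 7 tested probe sets 1 did. The median log2 change was -0.07 over the 7 and -0.0062 over all tested probe sets. PARK7, the gene of DJ-1, was at -0.15 ± 0.14 (SE, adjusted p = 0.942), although the antibody binds the protein and so this transcript does not check the injection.

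INHA was the probe set with the unadjusted p under 0.05. Its log2 change was 1.001 ± 0.35 (SE, 95% interval 0.23 to 1.78, limma adjusted p = 0.879), and its signal was 2.92 times that of IgG embryos in trial 1 and 1.48 times in trial 2. The group means were 172 ± 76.8 in anti-DJ1 and 96.5 ± 79.5 in IgG embryos (SD, n = 2 each). The difference between the trials, 0.89 on the log2 scale, was close to the change itself. INHA and INHBA are also granulosa cell genes. The 23 cumulus and granulosa markers on the array summed to 1757 and 2192 in anti-DJ1, 1911 and 1987 in IgG and 1796 in non-injected embryos, against 16737 in donor cells. The largest signal among them was FDX1 on each embryo array (645 to 878) and KRT8 in donor cells (9907). Of the 23 markers, 10 and 11 lay above the Tag controls in anti-DJ1 embryos, 14 and 7 in IgG embryos and 8 in non-injected embryos, against 11 in donor cells. NR5A1, FDX1, VCAN, SERPINE2 and KRT8 were above on all 6 arrays, and LHCGR and HSD3B1 on 5. FSHR, CYP11A1, STAR, AMH, PTX3, TNFAIP6 and PTGS2, genes of hormone response, steroid synthesis and cumulus expansion, were not above the Tag controls on any of the 6 arrays. The part of such cells in the INHA values was not tested.

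For GDF9 the log2 change was -0.07 ± 0.13 (limma adjusted p = 0.981, 95% interval -0.36 to 0.22), and the trials gave 0.12 and -0.26. BMP15 was at -0.15 ± 0.13 (-0.44 to 0.14, adjusted p = 0.928), with -0.28 and -0.02. INHBA was at -0.29 ± 0.17 (-0.66 to 0.07, adjusted p = 0.920), and its trials gave -0.61 and 0.03. None of these 3 intervals reaches a 2-fold change. Group means were 4760.3 ± 936 in anti-DJ1 and 5135 ± 1944 in IgG embryos for GDF9, 5030.2 ± 3614 and 5359 ± 3327 for BMP15, and 1173 ± 279.5 and 1421 ± 105 for INHBA (SD, n = 2 each). The first FST probe set was at -0.33 ± 0.23 (-0.85 to 0.19, adjusted p = 0.921), with -0.04 and -0.62. The ACVR1 probe sets were at -0.02 ± 0.15 and 0.24 ± 0.34 (adjusted p = 0.994 and 0.968). Of the 8 probe sets, 4 moved the same way in both trials (INHA higher, BMP15 and both of FST lower) and 4 in opposite ways, and 51.3% of all tested probe sets moved the same way.

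**Figure D2:**
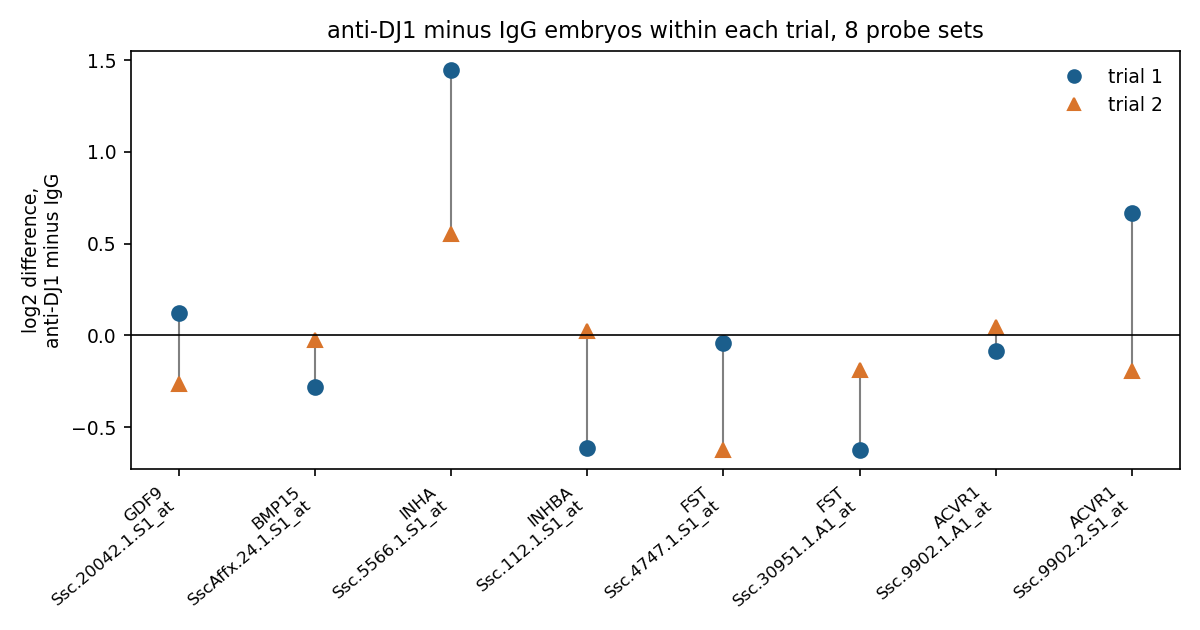
Difference of log2(signal + 4.57) between anti-DJ1 and IgG embryos within trial 1 (circles) and trial 2 (triangles) for the 8 probe sets, with a grey line joining the trials. INHA was higher in both trials, by 1.45 and 0.55, and GDF9, INHBA and both ACVR1 probe sets changed sign between trials.

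The comparisons of injected with non-injected embryos address the injection itself, and they rest on the single non-injected array, which is assumed to vary like the others. Each of them called 1 of the 7 tested probe sets, the second one of ACVR1, which was higher in injected embryos. The background was 0.465% of probe sets for IgG and 1.03% for anti-DJ1 embryos in either direction, with 0.396% and 0.722% higher and 0.0694% and 0.306% lower. Because the non-injected signal of 3.26 lay under that array's highest Tag control of 47.0, its fold is given as a bound against that control, within trial 1, which held the non-injected array. There it was at least 4.50-fold higher in anti-DJ1 embryos and at least 2.80-fold higher in IgG embryos. The fit over both trials gave log2 changes of 4.57 ± 0.44 and 4.34 ± 0.44 (limma adjusted p = 0.00389 and 0.00409). These changes and p-values take the 3.26 as a measured signal, so they do not test the bounds. The first ACVR1 probe set did not pass, at 0.35 ± 0.20 for anti-DJ1 embryos (adjusted p = 0.407) and 0.37 ± 0.20 for IgG embryos (0.397). The call was lost without the block for the trial (adjusted p = 0.993 and 0.992) and without the mean-variance trend (0.265 and 0.274).

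Both oocyte ligands had their lowest embryo value in non-injected embryos, but neither passed. GDF9 was at 0.36 ± 0.17 in anti-DJ1 embryos (limma adjusted p = 0.312) and 0.43 ± 0.17 in IgG embryos (0.248). BMP15 was at 0.46 ± 0.17 (0.193) and 0.61 ± 0.17 (0.119). BMP15 passed in IgG embryos when testing was limited to the brightest 40% (limma adjusted p = 0.0148). INHA was at -0.11 ± 0.46 in anti-DJ1 and -1.11 ± 0.46 in IgG embryos (0.926 and 0.257), INHBA at -0.15 and 0.15, and the first FST probe set at -0.06 and 0.27. The hybridisation controls, added in a fixed amount, had a median of 3133 and 3051 in anti-DJ1 and IgG embryos of trial 1, against 6318 in non-injected embryos, and their part in these values was not tested.

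Trial 2 stood above trial 1 for GDF9, BMP15 and INHA. These 3 of 7 tested probe sets passed in the trial term of the same fit and 0 were lower, against 18.3% of all probe sets higher, 13.0% lower and 31.4% in either direction. BMP15 was 3.07 times as high in trial 2 as in trial 1 in anti-DJ1 embryos and 2.56 times in IgG embryos (log2 1.49 ± 0.13, limma adjusted p = 8.42e-05). GDF9 was 1.32 and 1.73 times as high, a change of 0.60 ± 0.13 (adjusted p = 0.00698). INHA was 1.92 and 3.79 times as high, a change of 1.36 ± 0.35 (0.0139). INHBA (0.17 ± 0.17), the first FST probe set (0.15 ± 0.23) and the ACVR1 probe sets (0.04 ± 0.15 and 0.31 ± 0.34) did not pass, and INHBA, FST and the first of ACVR1 took the other sign with a common 75th percentile on every array. The median of all tested probe sets in this comparison was 0.13, and -0.01 under quantile normalization and -0.10 with the common percentile, where 2636 higher and 1879 lower calls became 1869 and 2108 and then 1598 and 3143. The EF1A ratio differed between the trials as given above. The 36 probe sets of the bacterial poly(A) control RNAs had a median of 219 and 293 in anti-DJ1 and IgG embryos of trial 2, and of 3.60 to 6.71 on the 4 arrays of trial 1. The hybridisation controls had a median of 1260 and 1337 in anti-DJ1 and IgG embryos of trial 2, against 3133 and 3051 in trial 1. The part of the EF1A ratio or of either set of controls in these changes was not tested. GDF9 no longer passed with a common 75th percentile on every array (0.35, adjusted p = 0.0629), and 0 of the 7 passed without the mean-variance trend.

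**Figure D3:**
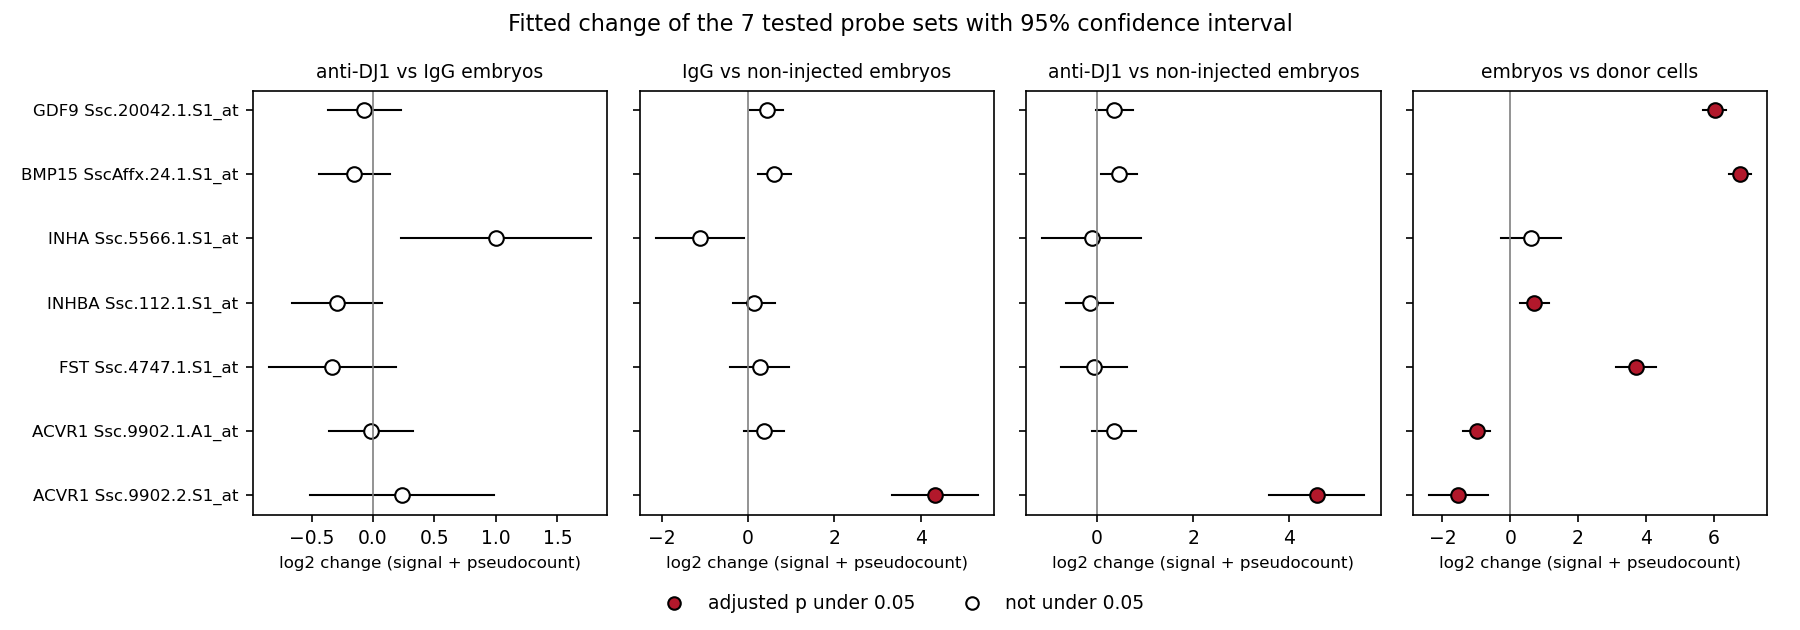
Fitted log2 change with its 95% confidence interval for the 7 tested probe sets in 4 comparisons, filled where the adjusted p was under 0.05; the horizontal scale differs between panels, and the first ACVR1 probe set is drawn above the second. Nothing passed for anti-DJ1 against IgG embryos, 1 ACVR1 probe set passed against non-injected embryos, and 6 of 7 passed for embryos against donor cells.

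Embryos were also set against donor cells, with the 3 embryo groups weighted equally against the single donor cell array. In such bulk samples fewer cells of a type and less RNA per cell cannot be told apart. Of the 7 tested probe sets 6 passed, 4 higher (GDF9, BMP15, FST and INHBA) and 2 lower (both of ACVR1). The background was 77.1% of all probe sets, 36.0% higher and 41.0% lower, so a count of calls says little here and the sizes carry the description. The median log2 change of all tested probe sets was -0.14. Calls were 5190 higher and 5905 lower, against 6569 and 4605 with the common 75th percentile.

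GDF9 was higher in embryos by 6.03 ± 0.15 on the log2 scale, or 65.6-fold (limma adjusted p = 1.26e-10). On single embryo arrays its difference from the donor cells ran from 5.77 to 6.90. BMP15 and the first FST probe set were not above the Tag controls in donor cells, and both passed (adjusted p = 4.82e-11 and 3.55e-07). The second FST probe set, which was dim and not tested, went the other way at -0.58, with 0 of 5 embryo arrays above donor cells. Against the highest Tag control of the donor cell array, and within its trial, BMP15 was at least 54.8-fold higher on the lowest of the 3 embryo arrays and at least 87.7-fold on the highest. By its first probe set, FST was at least 9.81-fold higher on the lowest and at least 10.7-fold on the highest. These 3 transcripts were the ones that still passed in every fit that left out 1 anti-DJ1 or IgG array and the block for the trial, with the highest adjusted p at 4.02e-05.

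INHBA was higher in embryos by 0.71 ± 0.19, or 1.63-fold (limma adjusted p = 0.0061), and on single arrays by 0.40 to 1.01. It did not pass without the block (adjusted p = 0.0945) or without the mean-variance trend (0.0999). INHA was at 0.61 ± 0.40 and did not pass (0.186), with 4 of 5 embryo arrays above the donor cells. It passed under quantile normalization (1.11, adjusted p = 0.0300) and with a common 75th percentile (1.19, 0.0176). These scalings moved the median of all tested probe sets from the -0.14 above to 0.28 and 0.47, so INHA stood above that median under each of the 3. The first ACVR1 probe set was lower in embryos (-0.99 ± 0.18, adjusted p = 4.35e-04), on 5 of 5 arrays, and did not pass with the common 75th percentile (-0.36, adjusted p = 0.0850). The second was at -1.53 ± 0.39 (0.0041), and at -0.05 with the non-injected array left out (0.902).

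Other genes of the pathway were taken from lists, with the brightest probe set for each gene. For each list, the background against donor cells was again 36.0% of all tested probe sets higher and 41.0% lower. Among receptors for these ligands, 5 of 18 listed genes were tested, and against donor cells 2 were higher and 1 lower. BMPR1B, a type I receptor used by BMP15, had a signal of 980.3 and 1085 in anti-DJ1, 1265 and 1543 in IgG and 1893 in non-injected embryos, against 89.5 in donor cells (3.83 ± 0.17, limma adjusted p = 6.63e-09). By brightest probe sets, it was the one listed pathway gene to pass between embryo groups, lower in anti-DJ1 than in non-injected embryos (-0.98 ± 0.19, adjusted p = 0.0458). A second BMPR1B probe set was at -0.34 there (0.375), and the call was lost under quantile normalization (0.0522), with no filter (0.0528), without the block (0.993) and without the trend (0.339). ACVR1B, the activin type I receptor, had 5106 to 5949.9 in embryos and 913 in donor cells (2.61 ± 0.14, 3.67e-08). TGFBR1, the type I receptor used by GDF9, went the other way, with 104 to 386 in embryos and 3305 in donor cells (-3.38 ± 0.22, 1.61e-07).

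Among SMADs and their regulators, 10 of 22 listed genes were tested, and 2 were higher and 6 lower in embryos than in donor cells. The median change was -1.79, against -0.14 over all tested probe sets. SMAD1, which carries BMP signals, had 1924 to 2318 in embryos and 1034 in donor cells (0.95 ± 0.14, limma adjusted p = 9.79e-05). SMAD4, the partner of the receptor-activated SMADs, had 89.3 to 146 in embryos and 2535 in donor cells (-4.46 ± 0.31, 2.82e-07). For USP9X, a deubiquitinase, the brightest probe set was at 0.75 in anti-DJ1 against non-injected embryos and did not pass (0.0532), while a second one passed (2.89, 0.0213).

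Of the other ligands, 2 of 23 listed genes were tested. TGFB2 was lower in embryos, where it was not above the Tag controls on any array (17.3 to 39.6), against 410.5 in donor cells. BMP4 had 158 to 622 in embryos and 228 in donor cells and did not pass. Of the secreted inhibitors and binders, 3 of 19 listed genes were tested, with 1 higher (DCN) and 2 lower in embryos. FSTL3, a relative of follistatin, had 290.1 to 716 in embryos and 744 in donor cells (-1.24 ± 0.20, adjusted p = 1.81e-04), which did not pass without the block (0.297). THBS1, which activates latent TGF-beta, had 83.5 to 159.7 in embryos and 13492 in donor cells (-6.81 ± 0.28, 4.34e-09). Both tested convertases of 6 listed genes, PCSK7 and BMP1, were lower in embryos. BMP1 was not above the Tag controls on any embryo array (4.39 to 6.69), against 678 in donor cells. PCSK7 had 10.7 to 73.9 in embryos and 199.6 in donor cells. It was under the Tag controls in IgG embryos of trial 2 and in non-injected embryos. Of 18 listed target genes 5 were tested, with ID3, a target of BMP signals, higher (1.498 ± 0.12, 7.47e-07) and GADD45B lower (-4.28 ± 0.41, 3.87e-06). In anti-DJ1 against IgG embryos 0 genes of these 6 lists passed.

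**Figure D4:**
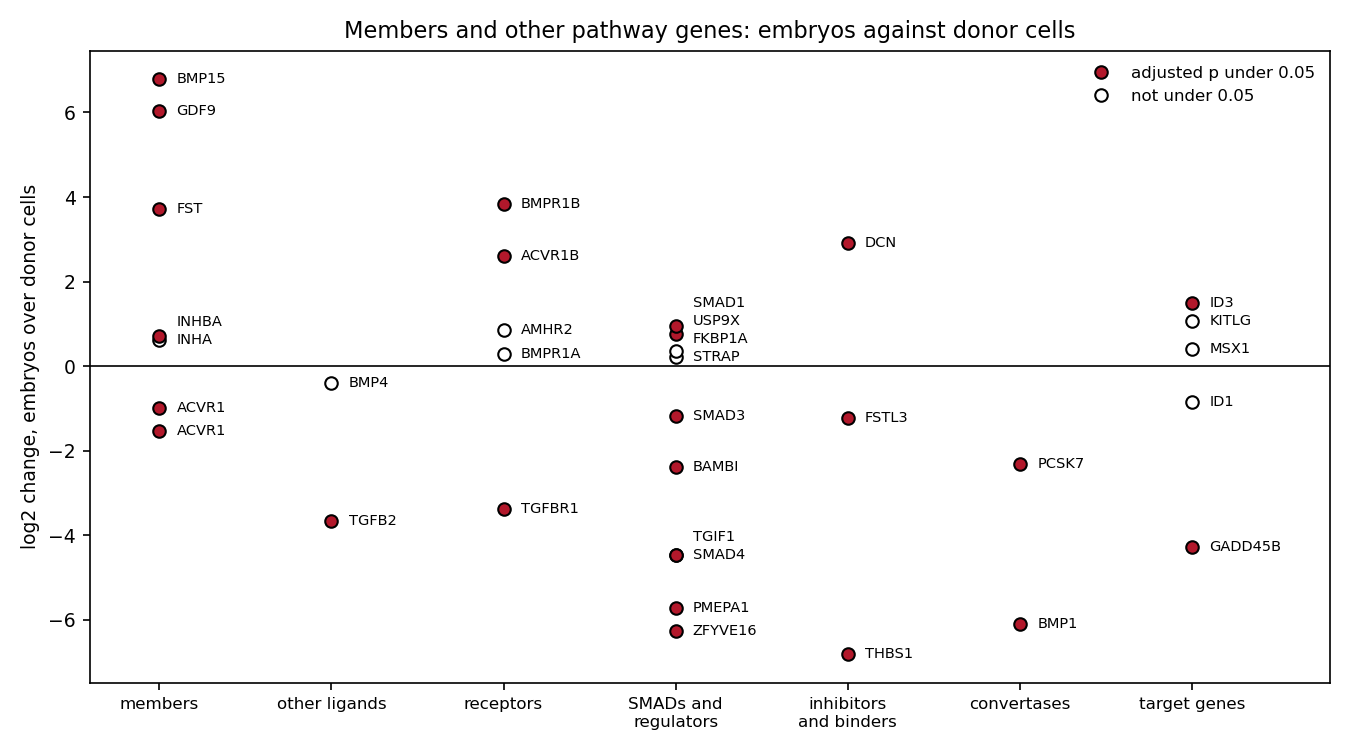
Log2 change between embryos and donor cells of the 7 tested probe sets of the 6 genes (left) and of the brightest tested probe set of each other pathway gene, by list, filled where the adjusted p was under 0.05. BMP15 and GDF9 stood above every other gene drawn, BMPR1B and FST followed, and THBS1, ZFYVE16 and BMP1 were lowest. BMP15 and FST in donor cells were at background. In embryos BMP1 was at background on every array, and ZFYVE16 on every array but IgG of trial 1.

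The genes most like each of the 6 were found by the root mean square difference of centred log2 patterns over the 6 arrays, among 6818 tested probe sets with 1 symbol. For GDF9 they were FAAP24 (0.07), SPINK5 (0.17) and TDH (0.19). For BMP15 they were the egg coat gene ZP2 (0.24), HMMR (0.27) and TCP11 (0.27), where the median over all probe sets searched was 2.89. FST was nearest to CD59 (0.11), MBNL3 (0.16) and TFAP2C (0.16), INHBA to CLN8 (0.05), ACBD3 (0.08) and LRRC41 (0.11), and the first ACVR1 probe set to HDAC1 (0.05), PDCD6IP (0.07) and IMPDH2 (0.07). INHA was nearest to RHOF (0.23), GFPT1 (0.25) and HDAC6 (0.27), against a median of 1.02. The 6 arrays share the split between embryos and donor cells, which sets most of these values for GDF9, BMP15 and FST.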

How the data were processed

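The deposited table holds 1 intensity per probe set and array on a linear scale, made by the authors with MAS5, per the submitters' processing notes, from RNA labelled by a two-cycle method from 50 ng, per the labels' protocols. Not given in the sources used here are the version of MAS5 and its scaling target. Of 24123 probe sets, 124 array controls were left out; of the other 23999, 10069 had a single symbol, 198 several and 13732 none, in an annotation that can be old. Columns without a sample numbered 0.

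Values were set to log2(signal + 4.57), the 10th percentile of all signals, so changes of dim probe sets are understated. The 14399 probe sets in the upper 60% by mean signal (above 54.4) were tested in limma 3.58.1 (R 4.3.3; lmFit, eBayes with trend), two-sided, with Benjamini-Hochberg adjustment. All 6 arrays entered, with group and trial as terms, since the design text names each trial's IgG array as its control; same-trial deviations correlated at r = 0.559 across probe sets. The fit has 1 residual degree of freedom, and moderation added 9.17. The injected groups' 2 samples are biologically different, per the design text. With trial as a term, the spread within a probe set is how far the anti-DJ1 minus IgG difference changed between trials. Moderation shares this spread across probe sets. The single donor cell and non-injected arrays add none of their own, so p-values do not measure how such samples vary. The number of arrays limits the precision: the median 95% half-width for anti-DJ1 against IgG was 0.52 on the log2 scale. Bounds set each array of trial 1 against the highest Tag control of the dim array, which was also in trial 1. The fit was tested on simulated data. The genes and lists were chosen with earlier results of these data known; the trial term and 2 alternatives were added after seeing the values. Named were all probe sets of the 6 genes, PARK7, up to 4 pathway genes per list by p-value, and the 3 nearest patterns per gene. No set test was run. Alternatives covered pseudocount, filter, scaling, block, trend and left-out arrays.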

Additional observations from a re-analysis of the deposited data

How the results depend on the processing

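Over the alternatives run, 386 of 464 values for the 8 probe sets kept their direction and side of the threshold or moved by less than the spread, and 222 of 233 for the other named pathway genes. Where a test could be run, 7 values turned sign, none of them past the threshold. Without the replicate block, INHA and the first FST probe set were at 0.57 and 0.0142 in anti-DJ1 against non-injected embryos. In trial 2 against trial 1, a common 75th percentile gave -0.0767 for INHBA, -0.0985 for FST and -0.21 for the first ACVR1 probe set, and quantile normalization gave -0.0834 and -0.14 for FST and ACVR1. The cause was not tested. Counts over all probe sets moved more. In anti-DJ1 against IgG embryos 1 passed with a pseudocount at the 25th percentile and 58 with the upper 40% tested, none of them of the 6 genes. Neither INHA nor the second ACVR1 probe set was among those tested with the upper 40%, so neither could pass there. In IgG against non-injected embryos 67 passed in the reported fit, 236 with that pseudocount, 182 with the filter set on the mean of log2 values (chosen after seeing the data), 800 with the upper 40%, 166 with the common 75th percentile, and 0 without the replicate block or without the trend. In anti-DJ1 against non-injected embryos the counts were 148, 355, 276, 945 and 268 in the same settings, 71 with no filter, and again 0 without the block or without the trend. The count of 1 for the 6 genes in these comparisons was 0 without the block and without the trend, and 0 in anti-DJ1 embryos with the upper 40%, where the second ACVR1 probe set was not among those tested. With 1 of the 4 anti-DJ1 and IgG arrays also left out of the fit without the block, all of these counts against non-injected embryos ran from 0 to 0, which the missing block alone already gives. For embryos against donor cells, 3 or 4 of 7 passed with 1 anti-DJ1 or IgG array and the block left out, against 5 without the block alone and 6 in the reported fit, and 5190 of 11095 calls were higher, against 6569 of 11174 with the common 75th percentile. In trial 2 against trial 1, 0 of 14399 and 0 of 7 passed without the trend, and higher calls were 2636 of 4515, against 1869 of 3977 under quantile normalization and 1598 of 4741 with the common 75th percentile. Fits that left out an array and kept the block had no residual degrees of freedom and give values with no test; in these INHA ran from 0.55 to 1.45 in anti-DJ1 against IgG embryos, GDF9 from 5.91 to 6.16 against donor cells. The tests assume that single arrays vary like the replicated ones, and dim signals near the Tag controls, as for INHA, limit what their changes can show.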
